A study of Mus musculus with 2 samples.

Results

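CTCF and the cohesin genes are the genes for the machinery that is known to fold chromatin into domains, and the question here is where their own loci lie among the chromatin boundaries of the olfactory neuron. The 8 members, a fixed list of autosomal genes, are Ctcf, Rad21, Smc3, Stag1, Nipbl, Wapl, Pds5a and Pds5b. They were found by symbol in GENCODE mouse release 21 on GRCm38, all 8 among the 21755 protein-coding genes of chromosomes 1 to 19 and X, and they lie on 6 chromosomes. The map is in situ Hi-C, a method that joins DNA ends lying close together in the nucleus, of mature olfactory sensory neurons taken from the olfactory epithelium of adult mice. The neurons came from OMP-GFP animals, in which the promoter of the olfactory marker protein gene drives GFP and so marks the mature neurons, and were collected with a sorting gate. The labels give the strain 129P2/OlaHsd, mixed sex, and no treatment or modification. The only group holds 2 biological replicates of 3000000 and 1500000 cells, fixed in 1% formaldehyde and cut with DpnII. The labels do not state how many animals went into each. The authors pooled both replicates before calling boundaries, so the single list carries no spread between replicates, and no value below has an error or a test between groups. A boundary list holds no expression level, so the cell label was not checked against marker genes, and nothing below speaks of how strongly the 8 genes are expressed.

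Cohesin is a ring of SMC and kleisin proteins that extrudes chromatin loops. Its SMC3 and RAD21 subunits form part of the ring and a STAG subunit binds to it, NIPBL loads it and drives extrusion, and WAPL with PDS5A or PDS5B takes it off chromatin again. CTCF, a zinc finger protein, binds a directional motif and stops cohesin there, which leaves loop anchors and domain boundaries. In olfactory neurons, which do not divide, cohesin is known for this role in genome folding rather than for holding sister chromatids together.

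The sequences bearing most directly on the members are the CTCF motif instances beside their own boundaries. The genome was searched on both strands for the 14-base core consensus of CTCF, without mismatch, which gave 6562 instances on 20 chromosomes. Around the 22 boundaries that flank or overlap the 8 genes there were 5 instances, at 4 boundaries. They are shown from the GRCm38.p6 reference with 8 bases on each side, read in the direction of the motif, with the core in capitals.
Rad21, downstream flank (chr15:51899309-51899322, minus strand): gacatgggCCAGCAGATGGCGCcaaatgca
Smc3, upstream flank (chr19:53394784-53394797, plus strand): caaaacttCCACTAGGTGGCAGtcaggatc
Stag1, inside the gene (chr9:100643573-100643586, plus strand): cagcgcggCCAGCAGAGGGCGGtcgggacc
Stag1, inside the gene (chr9:100643631-100643644, plus strand): ggaaaatgCCACCAGATGGCGGgttaggat
Pds5b, upstream flank (chr5:150496058-150496071, minus strand): catagcggCCAGCAGGGGGCACtggattcc
The coordinates are those of the core. The Rad21 instance lies in an intron of Gm48923, the Smc3 instance is intergenic, both Stag1 instances lie in a Stag1 exon and the Pds5b instance lies in an exon of Fry. These are the letters of the reference genome, which is not the strain of the mice.

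Boundaries lay at or beside the main promoters of Pds5a and Stag1, so the bases before those starts are shown too, from the RefSeq promoter table (GRCm38.p6), with CpG dinucleotides in capitals. That table held 6 of the 8 members, without Rad21 and Nipbl.
Pds5a, 250 bases before the start (chr5:65698237-65698486, minus strand): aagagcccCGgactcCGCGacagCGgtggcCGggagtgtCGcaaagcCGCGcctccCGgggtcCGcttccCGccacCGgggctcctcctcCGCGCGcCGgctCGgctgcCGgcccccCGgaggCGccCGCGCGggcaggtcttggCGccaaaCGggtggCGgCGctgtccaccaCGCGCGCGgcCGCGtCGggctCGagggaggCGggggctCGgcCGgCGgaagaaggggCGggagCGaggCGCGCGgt
Stag1, 250 bases before the start (chr9:100643198-100643447, plus strand): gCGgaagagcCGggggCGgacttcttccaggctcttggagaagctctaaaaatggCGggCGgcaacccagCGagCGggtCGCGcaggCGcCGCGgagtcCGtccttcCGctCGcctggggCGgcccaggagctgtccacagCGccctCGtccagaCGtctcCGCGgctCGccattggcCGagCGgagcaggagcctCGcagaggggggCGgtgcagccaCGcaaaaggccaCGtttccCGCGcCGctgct
The Pds5a stretch holds 44 CpGs at 80.4% GC and the Stag1 stretch 31 at 71.2%. The other 4 members in the table held 26 (Smc3) to 40 (Ctcf) CpGs, against a median of 6 over 32619 promoters of the same length, of which 92.2% held at least 1. Of these promoters 0.310% held a CTCF core instance, and none of the 6 members' did. The 32619 promoters outnumber the coding genes used as background elsewhere, so they are a different set. Neither the CpG median nor these shares are given over coding genes alone. The Stag1 instances lie 125 and 183 bases after the start, so outside this window.

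The authors' list gives each boundary as a 5 kb interval with a class and a strength, a score without a stated scale that is the authors' own value and serves here only to rank boundaries within the list. It held 8058 boundaries, 4092 Strong and 3966 Weak (50.8% Strong), with strengths from 0.2 to 4.32 and a median of 0.509. From the values, Weak ends and Strong begins at 0.5. Distances were measured between 5 kb bins where a window is counted, and otherwise in kb from the gene's transcription start site (TSS), the start of the gene record, to the nearer edge of the boundary. A domain is the stretch between adjacent boundaries, measured from centre to centre.

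**Figure D1:**
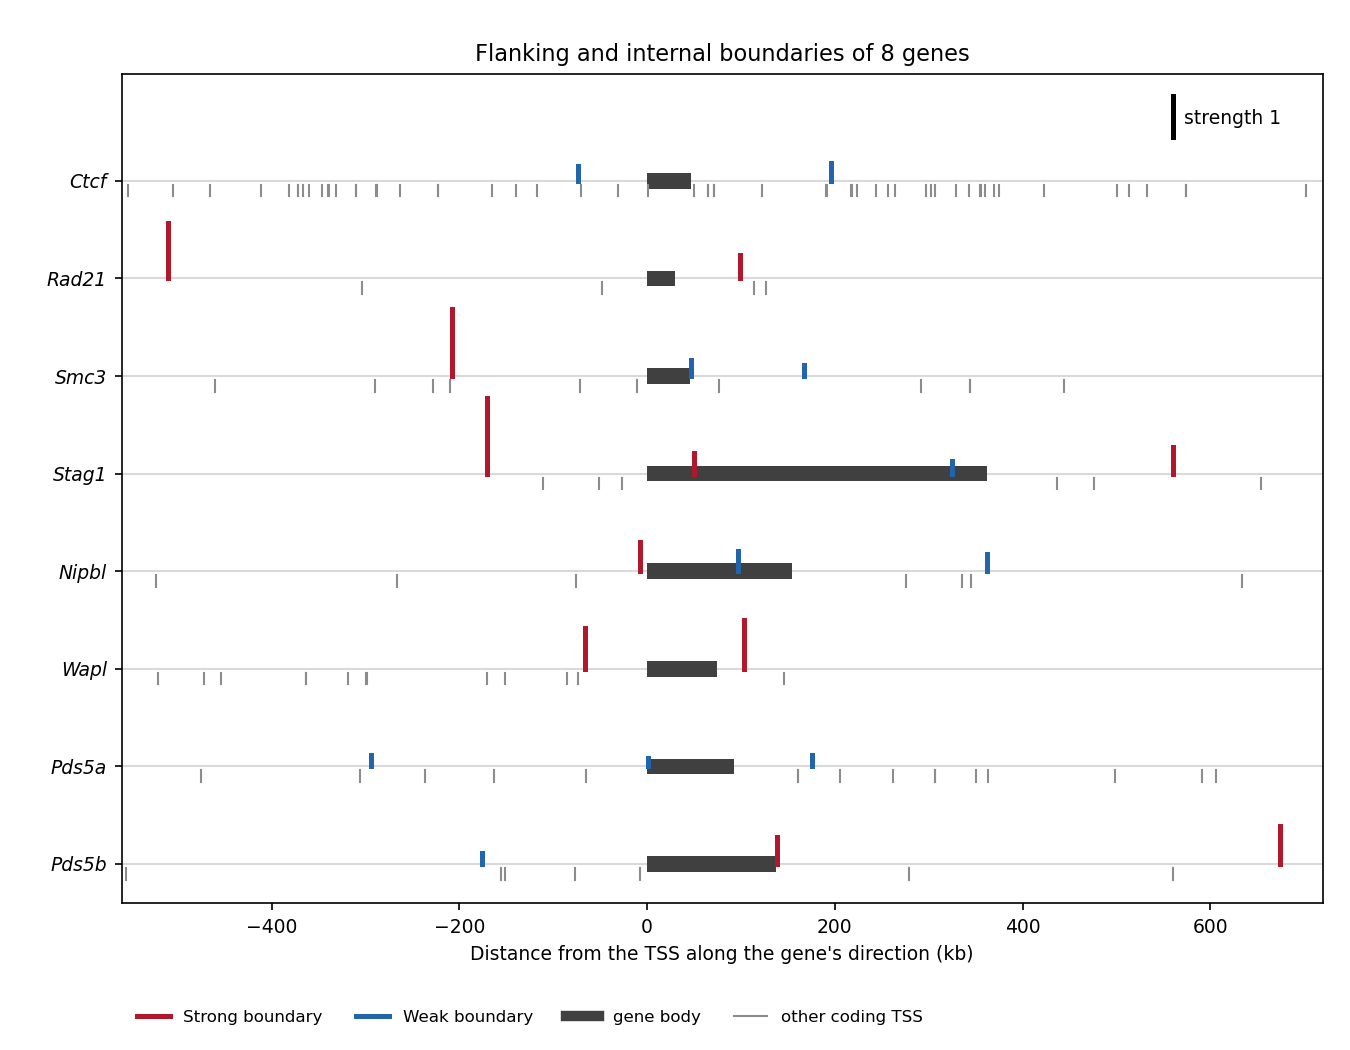
The 22 boundaries that flank or overlap each of the 8 genes, by distance in kb from the TSS in the direction of the gene. Bar height above the line is the authors' strength (red Strong, blue Weak), the dark block is the gene body and grey ticks are other coding TSSs; farther boundaries are not drawn. Ctcf sits among many TSSs between Weak boundaries, and Wapl sits between Strong ones with no other coding TSS.

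The members ranged from a TSS inside a boundary to one 140 kb away. From nearest to farthest the distance between bins was 0 kb for Pds5a, 10 kb for Nipbl, 45 kb for Smc3, 50 kb for Stag1, 65 kb for Wapl, 75 kb for Ctcf, 100 kb for Rad21 and 140 kb for Pds5b. With bins of 5 kb, the order of Smc3 and Stag1 is 1 bin apart and no error tells them apart. The median of the 8 was 57.5 kb, beside 60 kb over all coding genes. A boundary lay within 20 kb of the TSS for 2 of the 8 members (Nipbl and Pds5a), beside 21.2% of coding genes, and a Strong one for 1 (Nipbl), beside 13.7%. Both counts are near the background. Nipbl was nearer to a boundary than most genes, since 8.54% of coding genes were nearer, and Pds5b was farther, with 83.5% nearer.

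**Figure D2:**
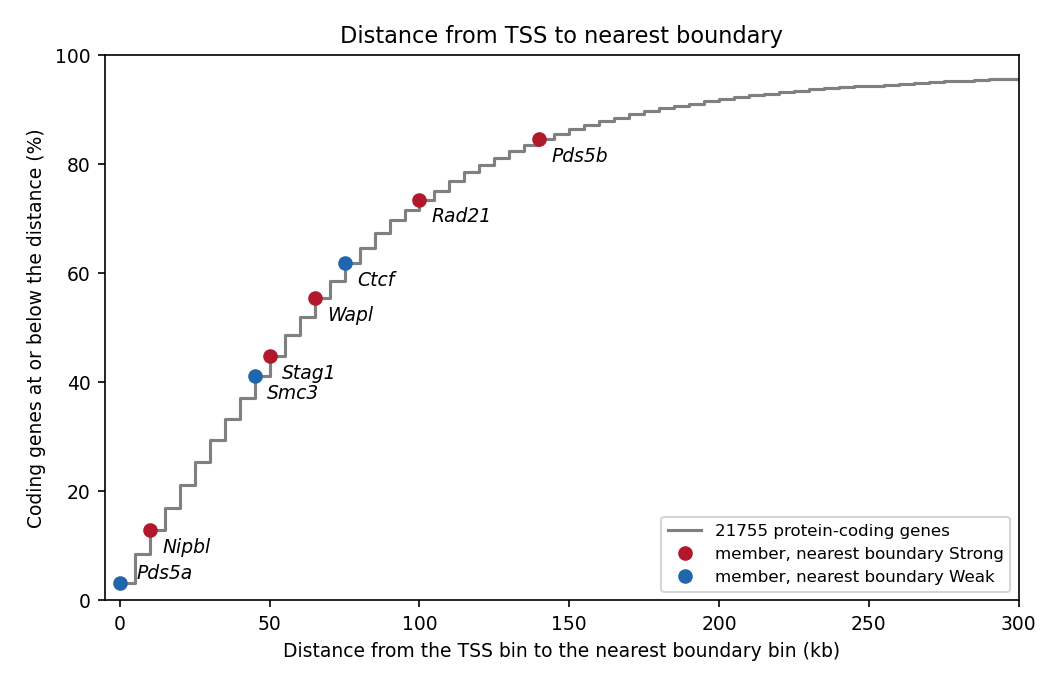
Share of the 21755 protein-coding genes (percent, vertical axis) with a boundary at or below each distance from the TSS bin (kb, horizontal axis; the axis ends at 300 kb). The 8 members are dots, red where the nearest boundary is Strong and blue where it is Weak, and they spread along the curve from 0 kb (Pds5a) to 140 kb (Pds5b).

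Ctcf, on chromosome 8 (105636568 to 105682922, plus strand, 46.4 kb), had no boundary in its body and Weak ones on both sides. The upstream boundary (105560001 to 105565000), in an intron of the vacuolar ATPase subunit gene Atp6v0d1, had a strength of 0.353, rank 5347 of 8058, and lay 71.6 kb from the TSS. The downstream one (105830001 to 105835000), over a coding exon of Tsnaxip1, had 0.424, rank 4656, and lay 147.1 kb beyond the gene's end. The domain between them measured 270 kb and held 12 coding TSSs, the most of any member. The record of Agrp, the gene of the agouti-related appetite peptide, starts 0.825 kb from the Ctcf TSS on the opposite strand, inside the Ctcf body. That record is 70.7 kb long and runs away from Ctcf, so most of it lies upstream of the Ctcf TSS. Counted along Ctcf, Ripor1 starts at -31.3 kb and Carmil2 at 49.7 kb. Hsd11b2, which encodes a glucocorticoid-inactivating enzyme, lay beyond the upstream boundary and Cenpt, a centromere protein gene, beyond the downstream one. A Strong boundary was found only 340 kb away, farther than for any other member, and the stretch between Strong boundaries around Ctcf measured 970 kb with 46 coding TSSs.

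Of the 3 genes for subunits of the ring and its partner, Rad21 lay in the largest domain. Rad21, the kleisin gene (chromosome 15, 51962240 to 51991747, minus strand, 29.5 kb), had no boundary in its body and Strong ones on both sides. Its upstream boundary (52500001 to 52505000) lay 508.3 kb away in an intergenic stretch, with a strength of 1.34 and rank 982. Its downstream boundary (51890001 to 51895000) had 0.574, rank 3602, and lay 67.2 kb beyond the gene's end. The domain of 610 kb was larger than that of 89.4% of coding genes and yet held 3 coding TSSs, those of Rad21, Aard (48.4 kb upstream) and Slc30a8, the zinc transporter gene of insulin granules (303.8 kb upstream). Utp23, a ribosome biogenesis gene, lay just past the downstream boundary, 15.1 kb from its centre.

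Smc3, which encodes a ring subunit (chromosome 19, 53600398 to 53645833, plus strand, 45.4 kb), had a boundary over its end. This Weak interval (53645001 to 53650000, strength 0.397, rank 4913) covered UTR sequence at the gene's end and the bases just past it. Upstream, 205.4 kb away, lay a Strong boundary of 1.64, rank 573 (53390001 to 53395000), in whose bin the splicing factor gene Smndc1 starts. A further Weak boundary of 0.268 lay 119.2 kb past the gene, in an intron of Rbm20. The domain of 255 kb between the upstream boundary and the gene's end held 3 coding TSSs, those of Smc3, Dusp5, a MAP kinase phosphatase gene starting at -71.3 kb along the gene, and Nutf2-ps1, which the annotation lists as coding. The nearest coding gene downstream, Rbm20, was on the far side of the boundary at the gene's end. The upstream and downstream boundaries of this domain, ranks 573 and 4913, stood farther apart in rank than those of any other member.

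Stag1 (chromosome 9, 100597798 to 100959375, plus strand, 361.6 kb) is the longest member and had 2 boundaries in its body, both in introns. The first (100645001 to 100650000) had a strength of 0.510, rank 4021, just over the limit between Weak and Strong. The second (100920001 to 100925000) was Weak with 0.302, rank 5969. Outside the gene lay Strong boundaries of 1.84, rank 391, 167.8 kb upstream (100425001 to 100430000), the strongest of all 22, and of 0.660, 195.6 kb downstream in an intron of Ppp2r3a. The record's TSS is that of 1 early transcript and lies 47.2 kb before the first internal boundary. The first start among the transcripts tagged principal in GENCODE, at 100643448, lies 45.7 kb further on and 1.55 kb before the boundary, and RefSeq has its start at the same base. The paired CTCF instances shown above, 58 bases apart and both pointing along the gene, lie between that start and the boundary, with 1.36 kb from the second to the boundary's edge. The record's TSS and the first principal start lay in the same domain, which measured 220 kb. It also held the TSSs of Il20rb, the signalling adaptor gene Nck1 and Slc35g2, all upstream of Stag1 and on the opposite strand. Pccb, which encodes a propionyl-CoA carboxylase subunit and is the nearest coding gene downstream, lay past both internal boundaries. Only 13.7% of the gene lay inside that domain.

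Nipbl, the loader gene (chromosome 15, 8290617 to 8444463, minus strand, 153.8 kb), lay in the smallest domain and shared it with no other coding TSS. A Strong boundary of 0.716, rank 2879 (8450001 to 8455000), lay 5.54 kb upstream of its TSS in intergenic sequence. A Weak one of 0.495, rank 4124 (8345001 to 8350000), just under the class limit, lay in an intron. Together they bounded a domain of 105 kb, with 1.43% of coding genes in smaller ones, which held 63.0% of the gene. On the downstream side a Weak boundary of 0.411 lay 205.6 kb past the gene's end, over a coding exon of Wdr70. The nearest coding genes, Gm2310 upstream and Cplane1, a gene of primary cilia, downstream, were both across a boundary from the Nipbl TSS. With Strong boundaries only, the domain grew to 1010 kb with 5 coding TSSs.

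Wapl, the releasing factor gene (chromosome 14, 34673928 to 34747983, plus strand, 74.1 kb), was the member whose boundaries were strong on both sides and close. The upstream boundary (34605001 to 34610000) had a strength of 1.004, rank 1765, and lay 63.9 kb from the TSS. The downstream one (34775001 to 34780000) had 1.19, rank 1310, and lay 27.02 kb past the gene's end. Between them lay 170 kb with no coding TSS but that of Wapl. Just outside stood Opn4, the melanopsin gene, whose TSS was 7.36 kb from the centre of the upstream boundary, and Grid1, a glutamate receptor family gene, 42.6 kb from that of the downstream one. Since both boundaries are Strong, leaving out Weak ones did not change this domain.

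The paralogues Pds5a and Pds5b, both on chromosome 5, had unlike surroundings. Pds5a (65605721 to 65698273, minus strand, 92.6 kb) had its TSS in a boundary bin (65695001 to 65700000), as had 3.16% of coding genes. That boundary was among the faintest of the list, with a strength of 0.207, rank 7847, and 2.62% of boundaries weaker. The flanking boundaries were Weak as well, 0.287 downstream (80.7 kb past the gene, in an intron of Smim14) and 0.275 upstream (291.7 kb away, over a coding exon of 9130230L23Rik). The domain on the gene's side of the promoter measured 175 kb and held 3 coding TSSs, with Ube2k, a ubiquitin-conjugating enzyme gene, and Smim14 starting 161.0 and 161.1 kb from the Pds5a TSS. N4bp2, upstream, was separated from Pds5a by no boundary other than that in its TSS bin, and a 5 kb bin cannot tell on which side of a boundary within it the TSS lies. The nearest Strong boundary was 305 kb away.

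Pds5b (150673739 to 150810690, plus strand, 137.0 kb) had a boundary at the opposite end of the gene. A Strong interval of 0.659, rank 3151 (150810001 to 150815000), covered UTR sequence at its end, and 2.62% of coding genes had their end in a boundary bin, as did 2 of the 8 members (Pds5b and Smc3). Upstream, 173.7 kb away, lay a Weak boundary of 0.267, rank 6565 (150495001 to 150500000), over Fry. Downstream the next was a Strong one of 0.936, rank 1987, 534.3 kb past the gene. The domain holding the TSS measured 315 kb and held 5 coding TSSs, those of Pds5b, N4bp2l2 (7.56 kb upstream), N4bp2l1, the DNA repair gene Brca2 (at -151.1 kb along the gene) and Zar1l. Kl, the gene of the hormone klotho, lay across the boundary at the end of Pds5b.

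Gene bodies overlapped a boundary in 5 of the 8 members, Smc3, Stag1, Nipbl, Pds5a and Pds5b, beside 15.9% of coding genes. The members are long, with a median of 83.3 kb against 17.4 kb over coding genes, and longer genes overlap boundaries more often. Among the 5 members of 20 to 100 kb, 2 overlapped one, beside 18.2% of coding genes of that length, and among the 3 members of 100 to 500 kb all 3 did, beside 45.5%. In Smc3 and Pds5b the bin only overlapped the last bases of the gene, and in Pds5a it reached past the TSS, so 2 members, Stag1 and Nipbl, had a boundary wholly inside.

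Strengths of the 22 boundaries divided evenly, with 11 Strong and 11 Weak. Of the 16 flanking boundaries 9 were Strong (56.3%), beside 63.1% of the boundaries that flank coding genes counted once per gene and side. Of the 6 in bodies 2 were Strong, beside 57.9% of the boundaries in coding gene bodies. Flanking strengths ran from 0.267 (Pds5b, upstream) to 1.84 (Stag1, upstream) with a median of 0.617, and those in bodies from 0.207 to 0.659 with a median of 0.446. Rad21, Stag1 and Wapl had Strong flanks on both sides, Ctcf and Pds5a had Weak flanks on both, and Smc3, Nipbl and Pds5b had 1 of each. In the top 25% of strengths were 6 of the 22, flanks of Rad21, Smc3, Stag1, Wapl (both) and Pds5b. The 22 bins held 5 to 22 DpnII sites, where the chromatin was cut (median 13, beside 12 over the list), had 35.3 to 53.8% GC (highest at the Pds5a promoter) and no undetermined bases. Whether site number or GC has a part in the strengths was not tested.

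**Figure D3:**
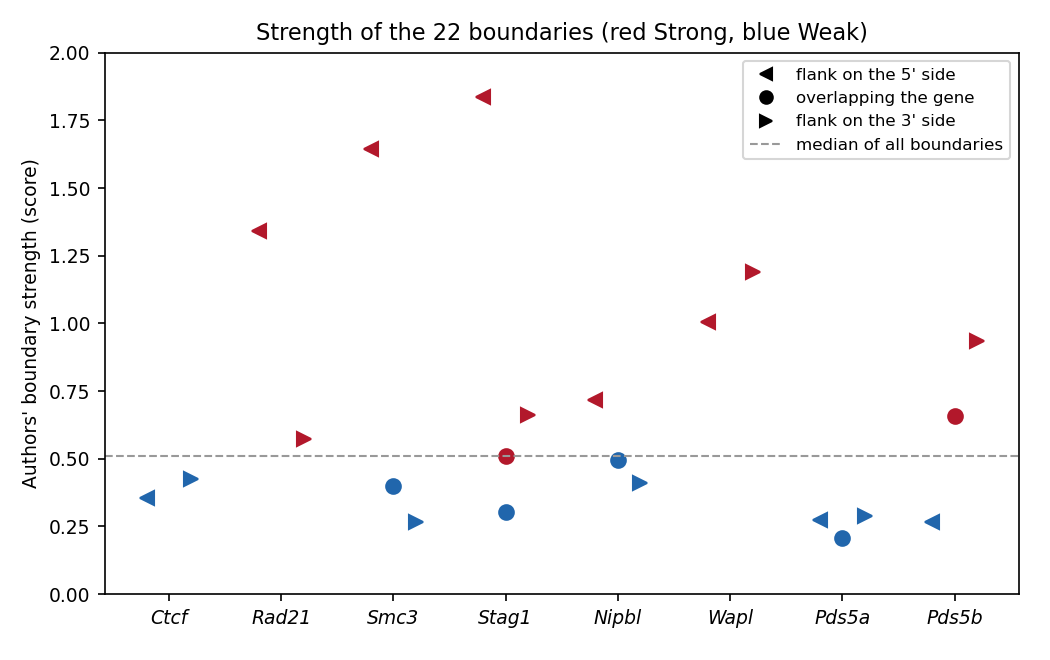
The authors' boundary strength (score, vertical axis) of the 22 boundaries by gene; triangles pointing left and right are flanks on the 5′ and 3′ side, circles overlap the gene, red is Strong and blue Weak. The dashed line is the list's median of 0.509: all boundaries of Ctcf and Pds5a lie below it and all of Rad21 and Wapl above.

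Domains holding the members' TSSs measured 105 kb (Nipbl) to 610 kb (Rad21), with a median of 237.5 kb, beside 275 kb over 21538 coding genes that lie between boundaries. They held a median of 3 coding TSSs with the member's own, beside 6 over the same genes, and 1 (Nipbl, Wapl) to 12 (Ctcf) in all. With Strong boundaries only, the domains of Rad21, Stag1 and Wapl stayed as they were, and those of the other members grew to between 735 kb (Smc3, Pds5b) and 1010 kb (Nipbl). The median was then 735 kb, beside 475 kb over coding genes.

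**Figure D4:**
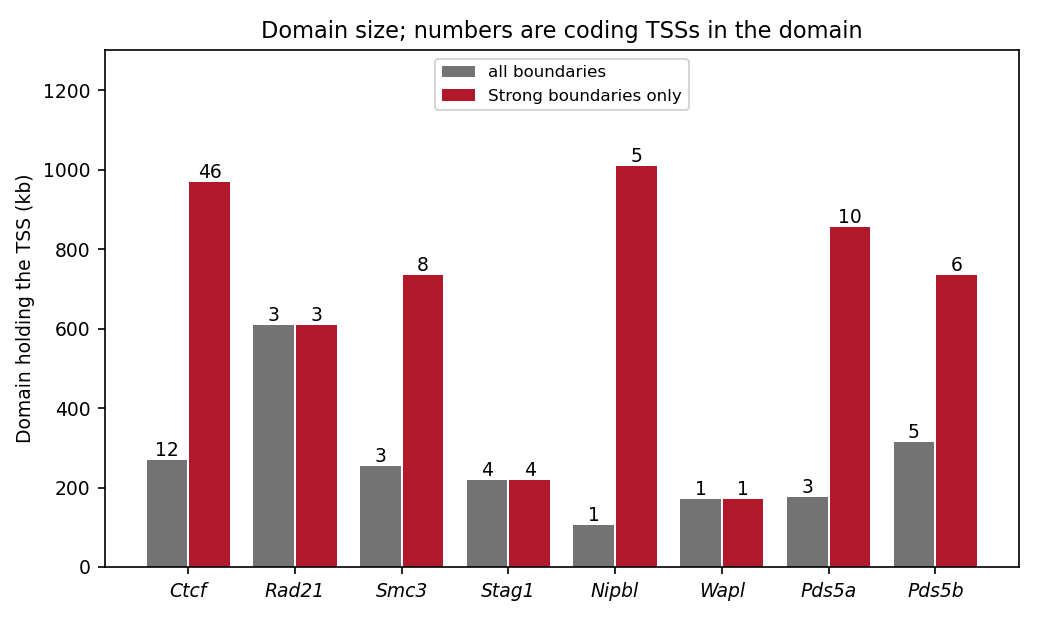
Size in kb of the domain that holds each member's TSS, between neighbouring boundaries of either class (grey) and between Strong boundaries only (red); the number over each bar counts coding TSSs, the member's own included. The bars are equal for Rad21, Stag1 and Wapl, and Ctcf goes from 12 to 46 TSSs.

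Counted from TSS to TSS, the nearest coding gene was more often across a boundary on the downstream than on the upstream side of the members. A boundary outside both TSS bins lay between the member's TSS and that of its nearest non-overlapping coding neighbour downstream for 6 of 8 (Rad21, Smc3, Stag1, Nipbl, Wapl and Pds5b), beside 30.3% of coding genes. Upstream this held for 2 of 8 (Nipbl and Wapl), beside 23.7%. The downstream path runs through the gene itself, and the members are longer than most genes. For Stag1 and Nipbl the boundaries counted downstream all lay in the member's own body, with none between the gene bodies. For Smc3 and Pds5b the boundary overlapped the member's end. The shares over coding genes are not matched for length. The difference between the sides was not tested.

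CTCF core instances lay within 20 kb of 4 of the 22 boundaries, beside 21.9% of the list. By class these were 3 of 11 Strong and 1 of 11 Weak, beside 30.3% and 13.2% of all Strong and Weak boundaries. Of the 5 instances shown above, those at Smc3 and Pds5b lay inside the 5 kb boundary bin, and the Rad21 instance and both Stag1 instances lay outside it and pointed toward it. Neither boundary of Ctcf itself, nor any of Nipbl, Wapl or Pds5a, had an instance in that window, which says only that this exact core is not there. Of the 22 boundaries, 11 had a coding TSS inside the 20 kb window, the members' own included, beside 37.6% of the list.

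The choice of TSS mattered for some members. With any annotated transcript start of a gene, 5 of the 8 had one within 20 kb of a boundary, beside 26.9% of coding genes: Smc3, Stag1 and Pds5b joined Nipbl and Pds5a. The members have 1 (Nipbl) to 14 (Stag1, Pds5a) annotated starts. That share over coding genes is not matched for gene length or number of starts. For Smc3 and Pds5b the starts are annotated near the end of the gene, the closest 1.64 and 4.77 kb from the boundary. For Stag1 they are the main starts described above.

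At the 20 kb window, other genes of the same machinery had a boundary near the TSS in shares close to that of coding genes. Among 19 further cohesin genes, 5 had one inside the 20 kb window (26.3%) and 3 had a Strong one. Mau2, which encodes the partner of NIPBL in the loader, had its TSS in a Weak boundary bin (strength 0.401), as Pds5a did. The strongest near ones were those of Pttg1, the securin gene (1.17, 20 kb away), Ddx11, a helicase gene (1.15, 5 kb), and Chtf18, a clamp loader gene (1.03, 15 kb). Of 15 further SMC-related genes, 14 of condensin and the SMC5/6 complex and the non-canonical SMC gene Smchd1 (Weak, 125 kb away), 4 had a boundary in the window, led by Smc5 (1.64, 20 kb away), Nsmce2 (0.861, 15 kb) and Ncapg (0.740, 5 kb). Of 9 other architectural DNA-binding protein genes 2 had one, Ctcfl, the germline paralogue of Ctcf (0.946, 20 kb), and Vezf1 (0.405, 5 kb). The shares, 26.3%, 26.7% and 22.2%, stand beside the 21.2% of all coding genes. At 50 kb the further cohesin genes stood farther from it, with 12 of 19 (63.2%) beside 44.9% of coding genes. The lists' median distances were 35, 55 and 45 kb, beside 60 kb over coding genes.

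**Figure D5:**
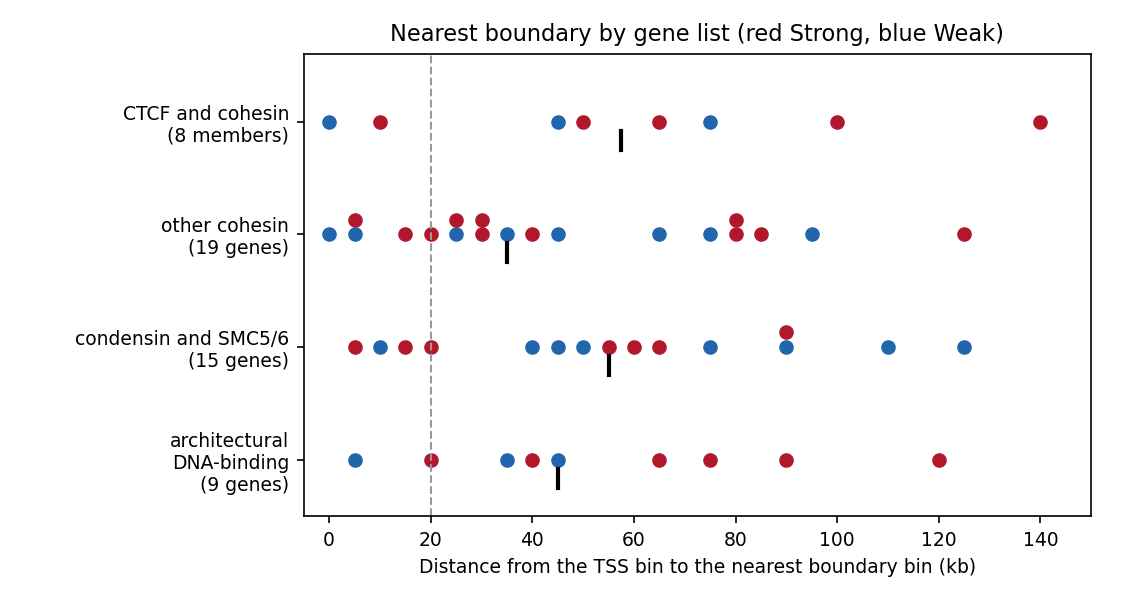
Distance in kb from the TSS bin to the nearest boundary bin for the 8 members and 3 further gene lists; each dot is a gene, red where that boundary is Strong and blue where Weak, and the black mark is the list's median. The dashed line is the 20 kb window, with 2 members at or inside it against 5, 4 and 2 genes of the other lists.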

How the data were processed

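Boundaries were called by the authors once, from the combined GRCm38 contact matrix of both replicates, per the series design text. Which caller was used, in what version and with what window, is not given in the sources used here. Its deposited strength is a score with no stated scale or normalization. Contact depth is unknown here, so which weak boundaries could be found is unknown too. Gene records came from GENCODE mouse release 21 and sequence from GRCm38.p6, the build of the list, and undetermined bases were left as they are. With Python 3.11.15, numpy 2.4.6 and pandas 2.3.3, distances, overlaps, domains and CTCF core instances (window 20 kb between 5 kb bins) were computed for all coding genes and boundaries, and the functions were tested on simulated data. No test was run, since the 1 list has no replicates and genes are not replicates of a condition. The members and lists were chosen with earlier results of these data known. Named genes are the members, their nearest coding neighbours, coding TSSs in the domain (all up to 4, otherwise the 2 nearest on each side), the first coding TSS within 100 kb beyond each flank, and, of other lists, genes with a boundary in the TSS bin and up to 3 with the strongest one within 20 kb. Smchd1 and the list genes of the closing observations fall outside this rule and were chosen after their values were seen. Alternatives changed the window, the class, the TSS and the motif rule.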

Additional observations from a re-analysis of the deposited data

How the results depend on the processing

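Most counts are small, and most alternatives moved the values. Leaving out boundaries can only lengthen distances and domains, and a wider window can only raise a count. Of 34 alternative values 28 moved: a count was taken as moved when it changed by more than 1.5 times or to 0, and a median at any change, since no replicate spread exists. Members with a boundary near the TSS numbered 2, and 4 within 50 kb (44.9% of coding genes), 1 with Strong boundaries only, 0 in the top 25% of strengths (7.04% of coding genes) and 5 with any transcript start. With the first start of a principal transcript, chosen after seeing the data, they numbered 3 (21.0% of coding genes), since Stag1 was added. Members with a boundary in the body numbered 5, and 2 with Strong boundaries only (9.89% of coding genes, 15.1% of those of 20 to 500 kb), 0 in the top 25% (4.54% and 6.63%) and 2 with the bin wholly inside (10.4% and 18.7%). The median domain went from 237.5 kb to 735 kb with Strong boundaries only and 1662.5 kb in the top 25%. The median distance to a boundary went from 57.5 kb to 120 kb with Strong boundaries only, 260 kb in the top 25%, 7.5 kb over all transcript starts and 55 kb with principal starts. Over all coding genes it went from 60 kb to 100 kb with Strong boundaries only. For the other settings no median distance over coding genes is given. Taking the nearest of all starts of a gene can only shorten a distance. The median number of TSSs in the domain went from 3 to 5.5 with Strong boundaries only and 9.5 with all genes of the annotation. No value over coding genes is given for these TSS counts or for the domain in the top 25%. Flanking boundaries with a CTCF instance numbered 3 of 16, and 12 with 1 mismatch allowed (76.3% of all boundaries then had one) and 8 within 50 kb. No share of all boundaries is given for that wider window. Further cohesin genes near a boundary numbered 5, and 3 within 10 kb, 12 within 50 kb, 3 with Strong boundaries only and 3 in the top 25% (15.8%, beside 7.04% of coding genes). Condensin and SMC5/6 genes numbered 4, and 2 within 10 kb, 7 within 50 kb and 1 in the top 25%. Architectural protein genes numbered 2, and 1 within 10 kb, 5 within 50 kb, 1 with Strong boundaries only and 1 in the top 25%. Within 10 kb the shares of these lists, in the same order, were 15.8%, 13.3% and 11.1%, beside 12.8% of coding genes. Within 50 kb they were 63.2%, 46.7% and 55.6%, beside 44.9%. No replicate could be left out and no paired analysis was possible because the list was called on both replicates pooled.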

Other observations

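The ring and STAG subunits have relatives that are X-linked or act in meiosis, and their loci can be set beside those of the members. These genes belong to the list of further cohesin genes but were chosen after their values were seen. Smc1a, the X-linked partner of Smc3 in the ring, had its nearest boundary 65 kb from the TSS, a Weak one of 0.463, in a domain of 280 kb with 3 coding TSSs. Stag2, the X-linked paralogue of Stag1, had its nearest 125 kb away, a Strong one of 0.780, in a domain of 280 kb with 2 coding TSSs. The meiotic kleisin genes differed from each other and from Rad21: Rad21l had a Strong boundary of 1.57 at 85 kb and Rec8 a Weak one of 0.210 at 75 kb in a domain of 220 kb with 23 coding TSSs. Smc1b, the meiotic SMC1 gene, had a Strong one of 0.536 at 30 kb, and Stag3, the meiotic STAG gene, a Strong one of 0.662 at 80 kb. Of these 6 genes Smc1b had a boundary in its body, and the others had none. Among the architectural genes, Patz1, also chosen after its value was seen, had the strongest nearest boundary of all genes in these lists, with a strength of 3.94 at 90 kb. That boundary lies near the start of chromosome 11 (3195001 to 3200000). Whether this position has a part in its score was not tested.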
